A study of Mus musculus with 17 samples.

Results

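Expression in cells derived from the dorsal wall of the mouse subventricular zone was compared with that in cells derived from the lateral wall, 14 days after electroporation. All 4 arrays labelled 14 days were taken, of 17 arrays in the series, the other 13 being from 8 hours to 7 days. The labels describe CD1 mice at stage P1 (postnatal day 1) whose dorsal or lateral progenitors were targeted by in vivo electroporation, with GFP cells sorted by fluorescence 14 days later. The construct that carried GFP, and whether animals were pooled, is not given in the labels. Each array carried a dorsal sample labelled with Cy3 and a lateral sample labelled with Cy5, and the labels call the 4 arrays biological replicates. The labels give no genotype beyond the strain. Per the labels' protocols the cDNA of both walls was amplified by a global PCR service whose protocol was undisclosed, and 200 ng of each was labelled. The labels name polyA RNA for the dorsal channel and total RNA for the lateral one. The dyes were never swapped, so a constant dye effect of a probe adds to every difference between the walls given here.

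The subventricular zone lines the lateral ventricles and keeps making neurons and glia after birth. Progenitors of the dorsal wall descend largely from the embryonic cortex (pallium), and those of the lateral wall from the ganglionic eminences (subpallium), whose homeobox factors of the Dlx family direct the making of GABAergic interneurons. Neuroblasts of both walls reach the olfactory bulb through the rostral migratory stream, while other daughters of the zone become astrocytes, oligodendrocyte progenitors or the ciliated ependymal cells that line the ventricle.

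Replicate 2 stood apart. In its dorsal channel 41.0% of probes were well above background, against 62.3, 59.5 and 61.1% on replicates 1, 3 and 4, and its level profile correlated with the other 14-day arrays at a median r of 0.793, against 0.847 to 0.851 for the others (across genes, which are not independent replicates). In the lateral channel 63.2, 56.4, 69.3 and 69.1% of probes were well above background on replicates 1 to 4. The median spot signal was lower in the dorsal channel on every array, at 52.6, 29.8, 56.8 and 64.2 on replicates 1 to 4 against 191, 118, 253 and 243 in the lateral channel. The dorsal-lateral log ratios of the 4 arrays hardly correlated with each other across genes, at a mean r of 0.03 (range -0.0016 to 0.0765), against 0.084, 0.048 and 0.088 among the arrays of 1, 4 and 7 days and 0.40 and 0.38 among those of 8 hours and 2 days. The number of arrays limits the precision of each value below. Levels are normalized log2 intensities, differences are log2 dorsal minus lateral ± SE from limma, and a gene was called at an adjusted p under 0.05. Each SE and p uses a spread between replicates pooled over all time points. The variance of the log ratios across genes averaged 2.26 on the 14-day arrays and 2.61 on those of 1 day. It averaged 0.91 to 1.22 at the other times. The pooled SE and p can therefore understate the spread at 14 days. In these bulk samples fewer cells of a type and less RNA per cell cannot be told apart.

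The wall comparison called 6 of 26403 genes (0.0227%), 1 higher in the dorsal samples (0.00379%) and 5 lower (0.0189%). At an unadjusted p under 0.05 there were 2725 genes (10.3%), 1005 higher (3.81%) and 1720 lower (6.51%). This count rested on the spread shared with the other time points. It was 0 in the 4 arrays fitted alone (1273 genes at an unadjusted p under 0.05), and 0 without either array of 8 hours, either of 2 days, or replicate 2 or 3 of 7 days. Without 14-day replicates 1, 2, 3 and 4 it was 7, 20, 56 and 105. With median centring in place of loess 18 genes were called higher and 1416 lower, and with quantile normalization 1 and 1. The dorsal and lateral levels of the 4 arrays did not overlap for 106 genes on the dorsal side (0.425%) and 298 on the lateral side (1.2% of 24913 genes measured on all 4 arrays). Of the 6 called genes 4 had levels that did not overlap.

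C1qtnf4, which encodes a secreted protein of the C1q and tumour necrosis factor related family, was the gene called higher in the dorsal samples (probe at chr2:90730416-90730475, mm9). Its level was 13.77, 15.88, 13.30 and 12.85 in the dorsal samples of replicates 1 to 4, against 7.28, 11.52, 10.60 and 9.79 in the lateral ones. Every dorsal value lay above every lateral one. The difference was 4.16 ± 0.57 (17.8-fold, adjusted p = 0.0354), and 4.09 ± 0.68 without replicate 2 (adjusted p = 0.0647).

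Pnoc, the precursor of the neuropeptide nociceptin, was the steepest called gene on the lateral side (chr14:66023641-66023700, mm9). It had 8.70, 10.96, 8.42 and 8.85 in the dorsal samples, against 13.44, 15.24, 12.43 and 12.85 in the lateral ones. The walls did not overlap, and the within-array differences spanned only -4.74 to -4.0. The mean was -4.26 ± 0.58 (adjusted p = 0.0354), and -4.25 ± 0.70 without replicate 2 (adjusted p = 0.0647). Tcirg1, a subunit of the vacuolar proton pump, had 12.01, 10.74, 10.11 and 8.95 in the dorsal samples against 15.90, 15.63, 13.69 and 12.58 in the lateral ones (chr19:3896678-3896810, mm9). Its walls did not overlap either. The difference was -4.0 ± 0.56 (adjusted p = 0.0362), and -3.70 ± 0.65 without replicate 2 (adjusted p = 0.0737).

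Cd276, the immune regulator B7-H3, kept its call with and without replicate 2 (chr9:58372107-58372150, mm9). It had 8.11, 10.37, 8.45 and 7.39 in the dorsal samples, against 11.36, 13.53, 11.58 and 11.52 in the lateral ones, again without overlap. The difference was -3.42 ± 0.42 (10.67-fold, adjusted p = 0.0321), and -3.50 ± 0.51 without replicate 2 (adjusted p = 0.0348). Ipcef1, an interaction partner of cytohesin exchange factors, had 7.57, 9.64, 7.05 and 6.93 in the dorsal samples against 12.17, 11.36, 10.98 and 8.87 in the lateral ones (chr10:3459901-3459960, mm9). The ranges overlapped through the dorsal sample of replicate 2 and the lateral one of replicate 4. The dorsal probe was well above background on 1 of 4 arrays. Its difference was -3.05 ± 0.37 (adjusted p = 0.0321), and -3.49 ± 0.36 without replicate 2 (adjusted p = 0.0073). Srrm4, a splicing factor of neurons, had 12.29, 11.67, 9.73 and 10.45 in the dorsal samples against 13.40, 14.28, 12.31 and 12.02 in the lateral ones (chr5:116889300-116889359, mm9). These ranges overlapped, although each array was lower in the dorsal sample. The difference was -1.97 ± 0.26 (adjusted p = 0.0354), and -1.75 ± 0.29 without replicate 2 (adjusted p = 0.0647). With the mean over its probes in place of the brightest probe it was -0.48 and not called.

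**Figure D1:**
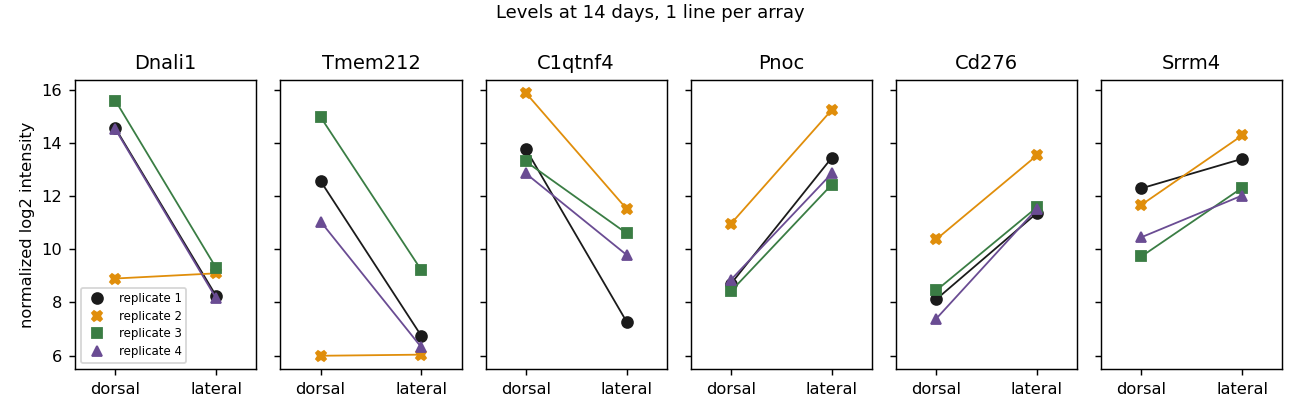
Normalized log2 intensity of 6 genes in the dorsal (left) and lateral (right) sample of each 14-day array, with a line joining the samples of an array. C1qtnf4 is higher and Pnoc, Cd276 and Srrm4 are lower in the dorsal sample of every array, while the dorsal samples of Dnali1 and Tmem212 are high on replicates 1, 3 and 4 and not on replicate 2.

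Without replicate 2 the call set was nearly another one. Of 26385 genes 20 were called (0.0758%), 5 higher in the dorsal samples (0.019%) and 15 lower (0.0569%), and 2 of them, Cd276 and Ipcef1, were also called with all 4 arrays. At an unadjusted p under 0.05 there were 2528 genes (9.58%). Median centring called 9 higher and 224 lower, quantile normalization 6 and 6, and the scanner software's processed signals 8 and 14. The steepest was Dnali1, which encodes a light intermediate chain of axonemal dynein, the motor of beating cilia. Its level was 14.55, 8.90, 15.59 and 14.51 in the dorsal samples of replicates 1 to 4, against 8.24, 9.09, 9.29 and 8.15 in the lateral ones. The dorsal samples of replicates 1, 3 and 4 lay far above all lateral samples, and that of replicate 2 lay among them. The difference was 6.32 ± 0.54 without replicate 2 (adjusted p = 0.0023) and 4.69 ± 0.91 with it (adjusted p = 0.122).

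Tmem212, a membrane protein listed here among ependymal genes, had 12.56, 5.99, 14.97 and 11.04 in the dorsal samples, against 6.74, 6.03, 9.21 and 6.31 in the lateral ones. It showed the same order, with replicate 2 at a low level in both walls. The difference was 5.44 ± 0.60 without replicate 2 (adjusted p = 0.0073) and 4.07 ± 0.84 with it (adjusted p = 0.138). Fam161b differed by 5.12, 0.03, 1.5 and 3.86 on replicates 1 to 4 (3.49 ± 0.54 without replicate 2, adjusted p = 0.0499). Arhgef28, a guanine nucleotide exchange factor, differed by 2.98, 0.89, 2.56 and 1.46 (2.33 ± 0.29 without replicate 2, adjusted p = 0.0187). The unnamed probe A_51_P139765 was not well above background in any lateral sample, and its mean over the 4 arrays was at least 9.18-fold higher in the dorsal samples. There 3 of 4 arrays had it well above background, and on replicate 2 it differed by -0.05.

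On the lateral side Eya3, a transcriptional coactivator with phosphatase activity, differed by -5.16, -0.33, -3.55 and -3.76 (-4.15 ± 0.61 without replicate 2, adjusted p = 0.0351). Wdr77, a partner of the arginine methyltransferase Prmt5, lay at -3.83 ± 0.56, Cc2d1a at -3.41 ± 0.44 and Apaf1, the adaptor of the apoptosome, at -3.17 ± 0.35 without replicate 2. With the mean over probes in place of the brightest probe, Eya3 lay at -0.91, Wdr77 at -1.89, Apaf1 at -0.64 and Fam161b at 1.96 without replicate 2, and none of these 4 was called. Ccdc120 was not well above background in any dorsal sample, and its mean over the 4 arrays was at least 8.47-fold lower there (adjusted p = 0.158). Without replicate 2 it lay at -4.12 ± 0.64 (adjusted p = 0.0499). Wdr6 was measured only on replicates 1 and 2, at -3.27 and 4.68, and its call without replicate 2 rests on replicate 1 alone. Across the 20 genes, 19 were measured on all of replicates 1, 3 and 4. Replicate 2 lay within 0.5 of 0 for 13 and on the same side as the others for 12. Leaving out replicate 2 favours genes with a gap there, so these counts do not test that array. Some of these genes, such as Tmem212, Fam161b and Ccdc120, were not well above background in either wall on replicate 2. Their ratios near 0 there are not a measured lack of difference. Over 17 fits without replicate 2, of which 16 left out a further array, Dnali1, Tmem212 and Ipcef1 were called in 17, Arhgef28 in 16, Cd276 in 9 and Fam161b in 2.

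**Figure D2:**
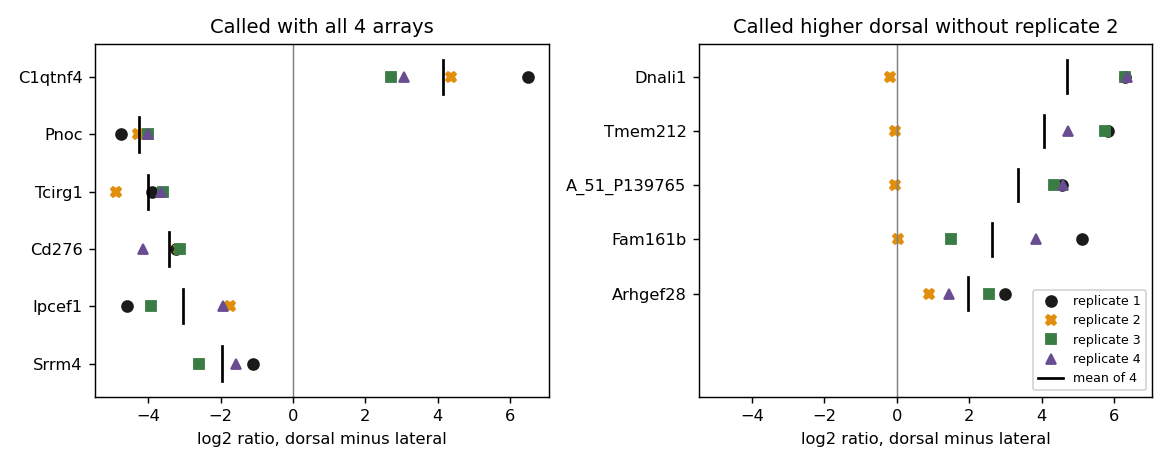
Log2 dorsal minus lateral ratio of the genes called with all 4 arrays and of those called higher in the dorsal samples without replicate 2, as 1 point per 14-day array. C1qtnf4, Pnoc, Tcirg1, Cd276, Ipcef1 and Srrm4 lie on the same side of 0 on every array, whereas replicate 2 lies close to 0 for Dnali1 and Tmem212.

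Gene lists are described by how many members reached an unadjusted p under 0.05, to be read against the 3.81% of all genes higher in the dorsal samples and the 6.51% lower, and by their median beside the all-gene median of -0.02. Among 37 lists with 580 tested entries, Pnoc was the member called with all 4 arrays and Tmem212 the member called without replicate 2. The lists' medians ran from -1.43 (microglia) to 1.54 (ependymal genes), and 30 of the 37 lay within 0.5 of 0. Centring each array on its median in place of loess moved the all-gene median to -0.39, and list medians are given with that setting where their sign turned.

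Ependymal genes, which build the motile cilia of the cells lining the ventricle, had the highest median, 1.54 over 14 members (2.04 without replicate 2). Of the 14, 5 were higher in the dorsal samples at an unadjusted p under 0.05 and 0 lower, and without replicate 2 these were 8 and 0 (4.24 and 5.34% of all genes). The median was 3.34, -0.43, 2.66 and 1.64 on replicates 1 to 4, so that replicate 2 alone lay below 0. The log2 of the list's summed level, over the spots measured on each array, was 16.73, 15.87, 18.67 and 16.29 in the dorsal samples. It was 12.89, 16.45, 16 and 15.12 in the lateral ones. Enkur, a protein of the sperm flagellum and motile cilia, was the member well above background in all samples and clearly positive on every array, at 3.85, 3.68, 1.96 and 1.51 (2.75 ± 0.76, adjusted p = 0.220). Cfap126, a basal body protein, differed by 5.73, 0.19, 2.57 and 3.27 (2.94 ± 0.90). Ak7, an adenylate kinase of cilia, differed by 4.01, -0.52, 3.97 and 1.76 (2.31 ± 0.90).

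Foxj1, the master regulator of motile ciliogenesis, differed by 3.38, -0.58 and 4.23 on replicates 1, 2 and 4, for a mean of 2.34 ± 1.34 (3.80 without replicate 2). Ccdc153 stood at -2.99, 6.47 and 5.60 on replicates 2, 3 and 4 (3.03 ± 1.72). Not every member followed. The ciliary central pair protein Hydin had a mean of -0.52 and was below 0 on the 3 arrays that measured it, the filament protein Tekt1 lay at -0.16, and Mia at -0.30 with a span of -5.09 to 3.31. With all 4 arrays no adjusted p of the list passed the threshold.

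The promoters of Dnali1 and Tmem212, the ciliary genes called without replicate 2, and of Enkur, which differed by at least 1.51 on every array, are shown because all of them lay on the dorsal side on replicates 1, 3 and 4. This choice was made after the values were seen. Each window runs from 250 bases before to 50 after the gene start (RefSeq, GRCm38.p6, minus strand) at chr4:125065608-125065907, chr3:27896319-27896618 and chr2:21205316-21205615. Capitals mark GTTGCC or its reverse complement GGCAAC, a half-site of the X-box bound by RFX factors of ciliated cells, searched on both strands.
Dnali1: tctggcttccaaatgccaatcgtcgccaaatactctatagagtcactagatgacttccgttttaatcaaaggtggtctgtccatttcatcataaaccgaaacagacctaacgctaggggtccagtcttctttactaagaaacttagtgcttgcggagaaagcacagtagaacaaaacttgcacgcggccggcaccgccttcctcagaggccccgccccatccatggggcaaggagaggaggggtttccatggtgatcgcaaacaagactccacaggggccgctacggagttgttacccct
Tmem212: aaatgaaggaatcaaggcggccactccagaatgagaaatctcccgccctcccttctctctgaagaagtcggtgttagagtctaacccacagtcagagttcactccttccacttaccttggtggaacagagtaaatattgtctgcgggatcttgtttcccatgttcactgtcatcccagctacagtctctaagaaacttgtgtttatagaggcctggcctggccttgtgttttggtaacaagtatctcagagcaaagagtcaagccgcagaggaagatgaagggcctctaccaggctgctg
Enkur: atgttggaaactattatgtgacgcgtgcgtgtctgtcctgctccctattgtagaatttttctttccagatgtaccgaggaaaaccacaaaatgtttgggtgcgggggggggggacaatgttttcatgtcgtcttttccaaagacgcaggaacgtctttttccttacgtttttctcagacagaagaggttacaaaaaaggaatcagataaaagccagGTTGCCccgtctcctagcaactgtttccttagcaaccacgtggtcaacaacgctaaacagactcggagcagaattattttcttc
The Enkur window held 1 such match, beginning at base 217, and the windows of Dnali1 and Tmem212 held 0. Of all 32851 windows 12.5% held it, and of 27025 genes with a window 14.1%. Of the 12 ependymal list members with a window 6 held it (Ccdc153, Spag6l, Tekt1, Hydin, Dynlrb2 and Enkur). A match describes these letters only. Other spellings were not searched, so 0 matches do not show that a window lacks an RFX site.

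Oligodendrocyte progenitor genes had a median of 1.07 over 12 members (1.47 without replicate 2), with 3 higher at an unadjusted p under 0.05 and 0 lower. The arrays differed widely, with medians of 4.03, -0.37, -0.20 and 2.02 on replicates 1 to 4. With median centring the list median was 0.04. Olig1, a factor of the oligodendrocyte lineage, differed by 7.79, 0.36 and 1.95 on replicates 1 to 3 (3.37 ± 1.65). Its paralog Olig2 differed by 4.03, -2.34, 2.27 and 1.78 (1.44 ± 0.93), with replicate 2 opposite to the rest. Lhfpl3 lay at 2.96 ± 0.96, the proteoglycan Cspg4 (NG2) at 2.30 ± 0.95 and the receptor Gpr17 at 2.24 ± 0.89. None of these reached an adjusted p under 0.05.

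Genes of myelinating oligodendrocytes had a median of -0.09 over 17 members, 3 of them lower at an unadjusted p under 0.05 and 0 higher (4 and 0 without replicate 2). The array medians were 0.16, -0.18, 0.70 and -3.0, so replicate 4 stood apart. The 3 lower members were Cldn11, a claudin of myelin (-2.64 ± 0.82, measured on 3 arrays), the myelin proteolipid Mal (-2.24 ± 0.80) and the connexin Gjc3 (-2.10 ± 0.69), all steepest on replicate 4. Mbp, myelin basic protein, was positive on all 4 arrays, at 2.39, 0.17, 0.95 and 2.73 (1.56 ± 0.87, adjusted p = 0.587).

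Neuroblast genes had a median of -0.82 over 17 members, with 7 lower in the dorsal samples at an unadjusted p under 0.05 and 0 higher (5 and 0 without replicate 2). The median lay below 0 on every array, at -1.09, -1.67, -1.48 and -0.06, with replicate 4 close to 0. Reference genes also lay below 0 on every array, with medians of -0.39, -0.40, -0.74 and -0.59. So did ribosomal protein genes (-1.32, -1.51, -0.67 and -0.65) and mitochondrial respiratory chain genes (-0.23, -0.78, -0.43 and -0.05). Tubb3, the neuronal beta-tubulin, had 12.31, 11.74, 13.54 and 14.94 in the dorsal samples against 15.79, 16.04, 15.69 and 15.31 in the lateral ones. No dorsal sample reached a lateral one. The difference was -2.58 ± 0.58 (adjusted p = 0.158). Dcx, the microtubule protein of migrating neuroblasts, differed by -3.25, -2.21 and 0.19 on replicates 2 to 4 (-1.75 ± 0.55, adjusted p = 0.275). Nrep lay below 0 on all 4 arrays (-1.43 ± 0.39) and its walls did not overlap. The long RNA Dlx6os1 lay at -1.97 ± 0.56, positive on replicate 4 alone.

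GABAergic interneuron genes had a median of -0.34 (-0.06 without replicate 2) over 20 members, with 5 lower and 1 higher at an unadjusted p under 0.05. Within this list the genes of GABA synthesis and vesicular loading lay on the lateral side and several peptide genes did not. Gad2, a glutamate decarboxylase, differed by -3.53, -1.93, -2.17 and 0.11 (-1.88 ± 0.47). Slc32a1, the vesicular GABA transporter, differed by -2.94, -2.38, -1.42 and -0.74 (-1.87 ± 0.46, adjusted p = 0.169). Gad1, the other decarboxylase, lay below 0 on every array (-1.20 ± 0.56), as did the homeobox cofactor Pbx3 (-2.47 ± 0.60). Pbx3 had 11.44, 10.97, 12.90 and 13.82 in the dorsal samples against 14.79, 15.51, 14.23 and 14.49 in the lateral ones, without overlap. The neuropeptide genes Npy (2.57 ± 1.55, measured on replicates 1 and 2) and Sst (1.81 ± 1.20) and the calcium-binding Calb2 (1.77 ± 1.26) had positive means, each carried by 1 or 2 arrays.

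Subpallial factors had a median of -0.24 over 19 members, with 5 lower and 1 higher at an unadjusted p under 0.05. Of the 17 members measured on all 4 arrays, 5 were lower on each of them (29.4%, against 8.41% of all genes). The share was 30% of 10 reference genes and 25% of 16 pallial factors. Dlx2 differed by -1.48, -0.30, -1.64 and -0.53 (-0.99 ± 0.23, adjusted p = 0.158), and Dlx1 by -0.68, -1.39, -2.02 and -0.37 (-1.11 ± 0.56). Dlx5 lay at -1.79 ± 0.77 and Sp8, a zinc-finger factor of interneuron progenitors, at -1.23 ± 0.54, both below 0 on all 4 arrays. Gbx1 stood on the other side, at 0.92 ± 0.27.

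Pallial factors had a median of 0.13 over 17 members, with 1 member at an unadjusted p under 0.05. The median of the same list over the earlier times was 1.35. The array medians were all slightly below 0 (-0.12 to -0.0036), a different sign from the list's median of means, and with median centring the latter was -0.25. Tfap2c, a transcription factor of the AP-2 family, differed by -0.0036, -0.20, 3.06 and 4.0 (1.72 ± 0.96), a positive value on replicates 3 and 4 alone. Tbr1, a factor of glutamatergic cortical neurons, lay below 0 on all 4 arrays but close to it (-0.31 ± 0.98). Slc17a6, a vesicular glutamate transporter, was positive on replicate 4 (4.10) and between -0.36 and 0.11 on the others.

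Zic and septal factors had a median of 0.46 over 7 members, 2 of them higher at an unadjusted p under 0.05. Zic1 differed by 3.46, 1.87, -0.84 and 1.93 (1.61 ± 0.68, adjusted p = 0.438). Zic2 was positive on every array, at 0.37, 0.16, 1.61 and 2.44 (1.15 ± 0.88). It was not well above background in either wall on replicate 2, nor in the lateral sample of replicate 1. Radial glia and stem cell genes had a median of 0.45 over 19 members, with 4 higher and 0 lower at an unadjusted p under 0.05, and -0.39 with median centring. The tetraspanin Cd9 (0.80 ± 0.24), the stem cell factor Sox2 (0.97 ± 0.36) and the gap junction protein Gja1 (1.30 ± 0.54) were positive on all 4 arrays. With median centring Cd9 and Sox2 turned to -0.39 and -0.08. Astrocyte genes had a median of 0.61 over 16 members with 3 higher and 3 lower, and -0.35 with median centring. The arrays did not share a side, with medians of 0.75, -0.80, -0.15 and 0.62 on replicates 1 to 4. Gfap, the astrocyte filament protein, lay at 0.23 ± 0.51 and turned to -0.95 with median centring. Apoe lay below 0 on every array (-1.08 ± 0.43), as did the astrocyte receptor Ntsr2 (-1.99 ± 0.80).

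**Figure D3:**
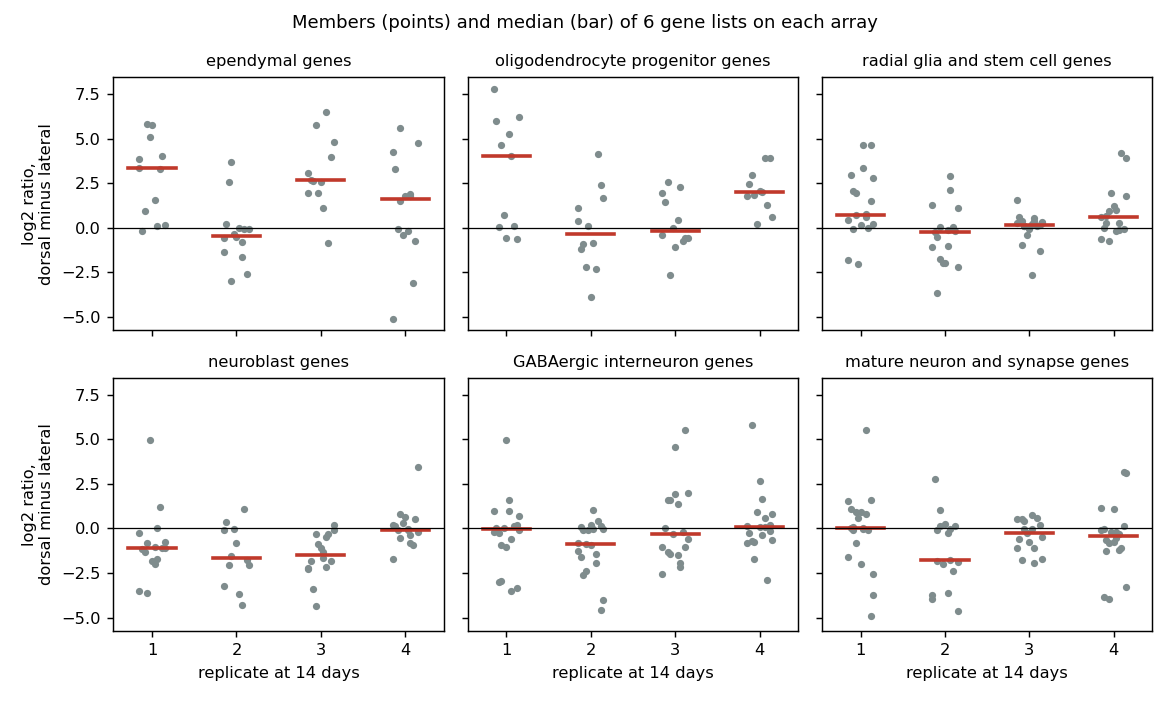
Log2 dorsal minus lateral ratio of each member (points) and the median (bar) of 6 gene lists on each 14-day array. The ependymal median is 3.34, 2.66 and 1.64 on replicates 1, 3 and 4 and -0.43 on replicate 2, and the neuroblast median is below 0 on all 4 arrays.

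Subunits of GABA and glutamate receptors had a median of 0.32 over 24 members, with 4 higher and 0 lower at an unadjusted p under 0.05. Of the 22 measured on all 4 arrays, 5 were higher on each of them (22.7%, against 7.41% of all genes and 33.3% of 9 mural and fibroblast genes). The GABA receptor subunit Gabra2 differed by 0.78, 2.09, 0.01 and 2.43 (1.33 ± 0.41). With median centring the list median was -0.06. Mature neuron and synapse genes had a median of -0.44 over 20 members, with 4 lower and 1 higher. Syt1, the calcium sensor of synaptic vesicles, differed by -3.75, -1.78, -1.94 and -3.26 (-2.68 ± 0.49, adjusted p = 0.106), and Rbfox3, a nuclear marker of neurons, lay at -1.63 ± 0.63. Over 13 alternative settings the difference of Syt1 ran from -3.905 to -0.85.

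Among signalling genes none was called. The medians of the Wnt, BMP and TGF-beta, Hedgehog, Notch and axon guidance lists were 0.03, 0.06, -0.07, 0.35 and 0.10. With median centring they were -0.41, -0.54, -0.65, -0.53 and -0.43. At an unadjusted p under 0.05, 2, 2, 3, 1 and 2 members were higher and 0, 1, 1, 2 and 1 lower. Tcf7l2, an effector of Wnt signalling, differed by 3.62, 5.10, 1.27 and 1.47 (2.86 ± 0.50, adjusted p = 0.0992), and its walls did not overlap. The BMP receptor Bmpr1a differed by 2.05, 5.36, 0.82 and 0.89 (2.28 ± 0.59). Of the Hedgehog pathway the co-receptor Gas1 (2.07 ± 0.78) and the receptor Ptch1 (1.29 ± 0.53) were positive on all 4 arrays, and the inhibitor Hhip was at -0.22, -0.21, -0.80 and -4.75 (-1.49 ± 0.67), a mean carried by replicate 4 (-0.41 without it). The axon guidance receptor Dcc lay at 1.52 ± 0.47 and the Notch ligand Dner at 1.37 ± 0.42. In the same 2 lists Plxna2 (-1.15 ± 0.31) and Rbpj (-0.77 ± 0.26) lay below 0 on all 4 arrays, and the walls did not overlap for Plxna2.

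Microglia genes, markers of a cell type that the electroporated lineage does not make, had a median of -1.43 over 16 members, 3 of them lower at an unadjusted p under 0.05. Replicate 4 carried most of it, with medians of -0.68, -0.28, -0.39 and -3.71 on replicates 1 to 4. The log2 of the list's summed level, over the spots measured on each array, ran from 13.79 to 18.47 in the dorsal samples. It ran from 16.63 to 19.14 in the lateral ones. Between 11 and 16 members passed the background test in dorsal samples, against 12 to 16 in lateral ones. The signalling adaptor Tyrobp differed by -1.85, -4.54, -0.47 and -5.62 (-3.12 ± 1.11, adjusted p = 0.333) and the chemokine receptor Cx3cr1 by -1.14, -2.78, -0.48 and -3.20 (-1.90 ± 0.88). The part of these cells in the lateral calls was not tested; Cd276 was lowest on replicate 4 (-4.13) and Pnoc and Tcirg1 were not. Of 17 ribosomal protein genes, at a median of -0.95, 8 were lower at an unadjusted p under 0.05, but just 2 were measured on all 4 arrays. Endothelial (-0.08), choroid plexus (0.08), neutrophil (-0.05) and mural and fibroblast genes (-0.13) had medians near that of all genes. Of 13 mural and fibroblast genes 1 was higher and 3 were lower at an unadjusted p under 0.05. The mural receptor Pdgfrb lay at 0.98, 4.12, 2.76 and 2.88 (2.69 ± 0.63, adjusted p = 0.158). The smooth muscle actin Acta2 lay at -1.20, -5.34, -0.41 and -0.82 (-1.94 ± 0.72, adjusted p = 0.358), and the collagens Col1a2 and Col3a1 had means of -3.31 and -2.32. Erythroid genes had a median of -0.11 over 7 members, -0.54 without replicate 2 and 0.18 with median centring. The log2 of the summed level of such genes was 9.43, 18.79, 14.15 and 9.86 in the dorsal samples against 12.49, 13.13, 13.21 and 13.86 in the lateral ones. Missing spots added nothing to these sums. Hba-a1 was missing on all 4 arrays, and 6 of 7 tested members were measured on all 4. The sums of different arrays are thus not comparable. Within an array the dorsal sum was higher on replicates 2 and 3 and lower on replicates 1 and 4. Hba-a2, a haemoglobin gene outside the list, had 8.81 and 16.49 in the dorsal samples of replicates 1 and 4. The lateral samples there had 17.18 and 16.94. The part of this blood signal in the other results of replicate 2 was not tested.

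Beyond the called genes and the lists, the genes with the largest smallest difference over the 4 arrays were examined. Egln3, a prolyl hydroxylase of the hypoxia pathway, had 10.95, 15.14, 12.89 and 11.57 in the dorsal samples against 5.92, 8.47, 7.08 and 6.12 in the lateral ones. Its walls did not overlap, and it was well above background in 2 of 4 lateral samples. The difference of 5.74 ± 0.90 had an adjusted p of 0.0745. Bphl, a hydrolase, lay at 3.23 ± 0.53 (adjusted p = 0.0901), without overlap. The matrix protein Fbln5 lay at 3.09 ± 0.58, Dcaf12l1 at 2.38 ± 0.59 and the calcium-binding S100a6 at 3.17 ± 0.88, where replicate 1 (7.07) was far above the other arrays (1.5 to 2.22). Over 13 alternative settings the difference of Fbln5 ran from 1.38 to 3.72. Hspa1b, an inducible heat shock protein with a near-identical paralog, lay at 3.05 ± 0.88.

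On the lateral side Def8 lay at -3.96 ± 0.61 (adjusted p = 0.0654), at -5.42, -4.17, -2.61 and -3.65 on replicates 1 to 4. Brf2, a subunit of an RNA polymerase III initiation factor, lay at -3.51 ± 0.70 and the glycosyltransferase B4galnt4 at -3.43 ± 0.79. Rtn4ip1, a mitochondrial oxidoreductase, lay at -3.10 ± 0.89 and the histone methyltransferase Nsd3 at -2.86 ± 0.58. Over 13 alternative settings the difference of Nsd3 ran from -4.09 to -1.0. In all, 1845 of 24913 genes were higher in the dorsal sample of each array (7.41%) and 2095 lower (8.41%).

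Genes that separated the walls at earlier times were followed into the 14-day arrays, which took no part in choosing them. On the 13 earlier arrays the wall difference averaged over times called 759 genes, of which 471 lay on the dorsal side (1.78%) and 288 on the lateral side (1.09%). Of the lateral ones 221 of 273 measured lay on the same side at 14 days (81.0%), against 56.5% of all genes below 0 earlier. Of the dorsal ones 278 of 469 did (59.3%), against 50.4% of all genes above 0 earlier. On replicates 1 to 4 the share was 69.2, 57.9, 81.0 and 67.8% for lateral genes and 60.9, 43.1, 63.2 and 54.0% for dorsal ones. A constant dye effect of a probe is shared by both sets of arrays, so these shares include it.

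The median difference of the dorsal genes was 0.14 at 14 days, against 1.18 earlier, and that of the lateral genes -0.30, against -0.76 earlier. The earlier sizes come from the arrays on which the genes were chosen, which favours large values there, so the step in size is a description only. Of the genes measured on all 4 arrays, 50 of 405 dorsal genes (12.3%) kept their side on each, against 8.625% of all genes above 0 earlier. Of the lateral genes 43 of 203 did (21.2%), against 9.84% of all genes below 0 earlier. Of the dorsal genes with the largest earlier differences, S1pr3, a sphingosine phosphate receptor, lay at -1.52 ± 1.19 at 14 days, against 3.73 earlier, Tbr1 at -0.31, against 3.80, and Tfap2c at 1.72, against 3.53. None of these 3 changes was called (adjusted p = 0.237, 0.261 and 0.625). Of the lateral genes, Dlx2 lay at -0.99 against -2.18 earlier and Dlx1 at -1.11 against -2.06, while Helt, a basic helix-loop-helix factor, lay at -0.21 against -2.11. The haemoglobin gene Hba-a2, one of near-identical copies, was measured on 2 of the 14-day arrays, and Hba-a1 and Tmsb4x on none.

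**Figure D4:**
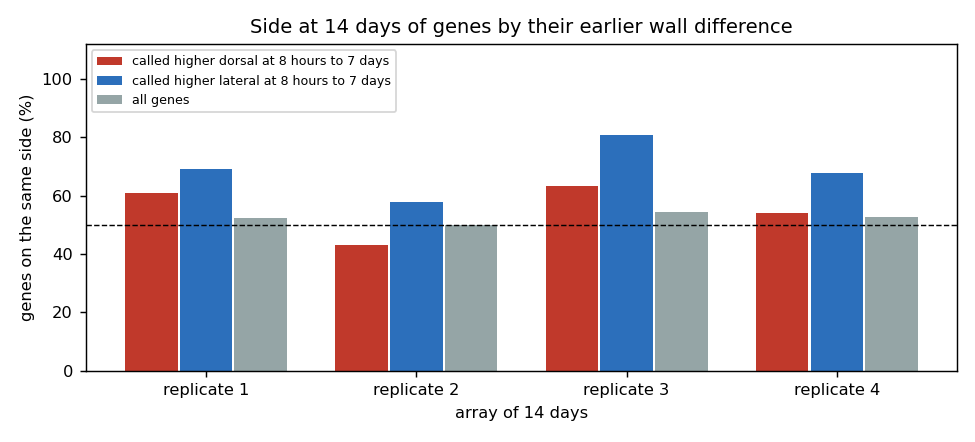
Share of the earlier dorsal and lateral genes that lay on the same side on each 14-day array, beside the same share over all genes. Lateral genes lie at 57.9 to 81.0% on the 4 arrays and dorsal genes at 43.1 to 63.2%, where replicate 2 is the lowest in both.

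The wall difference at 14 days was then set against the mean of the 5 earlier times, a contrast in which a constant dye effect cancels. All 4 arrays of 14 days lay on 1 slide that held no other time, so slide and time cannot be told apart here. Of 26403 genes 7 were called (0.0265%), 0 with a more dorsal and 7 with a more lateral difference at 14 days, each at an adjusted p of 0.0358, and 2664 had an unadjusted p under 0.05 (10.1%). Without 1 of 11 earlier arrays in turn the count was 0. Dmrta2, a factor of cortical patterning, lay at -0.87 ± 0.45 at 14 days against 2.98 earlier, a change of -3.85, with values of 0.59, -0.72, -0.28 and -3.07 on replicates 1 to 4. Prrx2, a homeobox factor, lay at -0.99 against 2.35 (-3.34), and Snap91, a clathrin adaptor of synaptic vesicles, at -2.16 against 1.28 (-3.44). Tcirg1 (-4.55), Cd276 (-3.45), Ipcef1 (-3.08) and Srrm4 (-2.27) were called in this contrast too, Srrm4 at -0.17 and not called with the mean over probes. They share the 14-day arrays with the wall comparison. Without replicate 2 the contrast called 5 genes (0.019%). Dnali1 (4.69) and Arhgef28 (2.54) were the 2 more dorsal at 14 days (0.00758%), and Ipcef1 (-3.52), Apaf1 (-3.50) and Atf6b (-3.21) the 3 more lateral (0.0114%). On replicate 2 the wall difference of Atf6b was 3.09, on the dorsal side.

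Detection gave a further view of the walls. Of 26447 genes 0 were well above background in all 4 dorsal samples and no lateral one, and 70 in all 4 lateral samples and no dorsal one (0.265%). The dimmer dorsal channel, described above, moved with this imbalance, and its part was not tested. The highest bounds were those of 5830469G19Rik, at least 4.94-fold lower in the dorsal samples (adjusted p = 0.259), of Zmiz1, a transcriptional coregulator, at least 2.57-fold lower (adjusted p = 0.735), and of the transcript BI153578, at least 2.27-fold lower (adjusted p = 0.607). These bounds compare means over the 4 arrays, and the levels of the walls overlapped for each of these genes.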

How the data were processed

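The authors extracted a linear fluorescence intensity per spot and dye with Agilent Feature Extraction 10.7.3.1 on the 14-day arrays and 10.5.1.1 or 10.7.3.1 on the others, per the file headers. The headers of the 14-day arrays name mouse build mm9. The deposited series table was used as an alternative. Its log2 values ran as Cy3 over Cy5, as found from its correlation with the scanner's log10 ratio of red over green, deposited in the same files. Its column medians at 14 days were -0.0920, -0.164, 0.0028 and 0.0015, its scale and direction were settled, with the normalization not given in the sources used here.

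Control spots were left out, which kept 43379 spots of 41174 probes on an array. Mean signals were background-corrected with normexp (offset 50), and normalized by loess within arrays and Aquantile between arrays. Outlier-flagged spots were treated as missing (1.33 to 2.61% on the 14-day arrays), and none was saturated. Replicate spots were averaged per probe, and the brightest probe represented a gene. A gene was tested if at least 2 arrays had it well above background in some channel. Names came from accessions (26876 probes) or symbols (3241) of the GRCm38.p6 annotation. The name in the files was kept for 11057 probes.

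Log2 ratios were tested in limma 3.58.1 (R 4.3.3) with a mean per time point over all 17 arrays, so that the spread was pooled over times. Adjusted p-values in the text are from limma's two-sided test with Benjamini-Hochberg adjustment across every tested gene. For a gene that no array of a wall had well above background, a bound ("at least") compares the brighter wall's mean with, per array, either the dim probe's signal or the lowest signal that passed the background test, whichever is higher. Dye bias can affect these bounds. Figures used matplotlib 3.10.9 under Python 3.11.15.

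Named genes were those called with or without replicate 2 (at most 10 a direction), the 8 a direction with the largest smallest difference over the arrays, members of the lists called or at the largest means on the same side on all 4 arrays (3 a list) with 14 preset genes, and the top genes of the other comparisons. Other list members were added after their values were seen, and some genes the rule named are not reported here. The arrays compared and the gene lists were chosen with earlier results of these data known. Replicate numbers did not pair the arrays: same-numbered arrays of different times had log-ratio deviations that correlated at a mean r of 0.0037 over 36 pairs, and differently numbered ones at -0.0016 over 83. Alternatives covered the background correction, normalization, filters, probes, the value table, array weights, slide and replicate blocks, and leaving out arrays.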

Additional observations from a re-analysis of the deposited data

Results flagged for a closer look

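The 4 values of each array measure, list median and named gene were checked for a value far from the others, by the gap to its neighbour as a share of the whole range (Dixon's ratio). Chance flags about 1 in 20 such sets, and 14 of 108 genes and 2 of 38 medians (those of 37 lists and of all genes) were flagged. That rate does not hold for genes named because they were called without replicate 2, such as Dnali1 and A_51_P139765, since a gap at replicate 2 favoured their choice. Replicate 2 was far from the others in the share of dorsal probes well above background (41.0%, ratio 0.871) and in its level correlation with the other arrays of 14 days (0.793, ratio 0.942).

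Of the 14 genes 5 were flagged for replicate 2. These were Dnali1 (-0.20 there, ratio 0.992), the probe A_51_P139765 (-0.05, 0.944), Dlx5 (-3.46, 0.853), the smooth muscle actin Acta2 (-5.34, 0.839) and the channel subunit Cngb1 (1.87, 0.834). Replicate 4 was flagged for the Zic and septal median (1.93, ratio 0.892) and the microglia median (-3.71, 0.883). It was also flagged for Cd276 (-4.13, 0.886), Bcas1 (1.26, 0.899), the granin Scg2 (0.82, 0.868), Hhip (-4.75, 0.871), the secreted BMP antagonist Sostdc1 (-3.39, 0.990) and Slc17a6 (4.10, 0.895). Scg2 was well above background on replicate 4 alone, in both walls, and Sostdc1 in the lateral sample of replicate 4 alone. In the dorsal samples Slc17a6 passed on replicate 4 alone. For Scg2 and Sostdc1 the ratios of the other arrays near 0 are not a measured lack of difference. Replicate 1 was flagged for S100a6 (7.07, 0.871) and Eomes, a factor of cortical intermediate progenitors (-1.37, 0.944). Replicate 3 was flagged for the endothelial adhesion molecule Pecam1 (-1.43, 0.856).

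The wall difference at 14 days differed from that of the earlier times for 7 genes with all 4 arrays, each at an adjusted p of 0.0358 in limma. The differences were -4.55 for Tcirg1, -3.85 for Dmrta2, -3.45 for Cd276, -3.44 for Snap91, -3.34 for Prrx2, -3.08 for Ipcef1 and -2.27 for Srrm4. Without replicate 2 they were -3.52 for Ipcef1, -3.50 for Apaf1 and -3.21 for Atf6b (adjusted p = 0.0173 each), and 4.69 for Dnali1 and 2.54 for Arhgef28 (adjusted p = 0.0321 each). The slide of the 14-day arrays held no other time, so slide and time cannot be told apart in these.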

How the results depend on the processing

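The counts of called genes moved widely. With all 4 arrays, 6 genes were called, against 1434 with median centring, 2 with quantile normalization, 3 with no filter, 1 with array weights, 2135 with slide as a random block (774 higher and 1361 lower, at a negative consensus correlation of -0.17), 0 with the 14-day arrays alone and 27 without both arrays that stand apart (1 day replicate 1 and 14 days replicate 2). Keeping outlier-flagged spots, an alternative chosen after seeing the data, gave 16. All 6 genes were among the calls with median centring, the stricter filter, the slide block and flagged spots kept. The replicate block gave 41 calls, 38 without replicate 2 and 27 for 14 days minus earlier times; the numbers did not pair the arrays. Leaving out 1 of the 17 arrays gave 0 to 105, with 0 in 6 fits (2456 to 2565 genes at an unadjusted p under 0.05 there). Without replicate 2 the count of 20 became 233 with median centring, 12 with quantile normalization, 50 with the value table, 9 with array weights, 471 with the slide block and 0 with the 14-day arrays alone (1296 at an unadjusted p under 0.05), and leaving out a further array gave 10 to 107. For 14 days minus earlier times the count of 7 became 1 with the processed signals, 3 with median centring, 4 with quantile normalization, 12 with the mean over probes, 1 with the value table, 1612 with the slide block and 14 without both arrays that stand apart, and leaving out 1 array gave 0 to 48. The cause of these changes was not tested, except that the fits with fewer arrays have fewer degrees of freedom.

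The share of earlier wall genes on the same side, 67.25%, was 89.94% with median centring, where that of all genes was 73.59%, and 61.44 to 68.73% under the other settings; leaving out 1 array gave 60.95 to 71.6%. Of 37 list medians 21 kept their sign with median centring, and 24 to 37 when 1 array was left out. Detection in 1 wall gave 253 genes at 3 of 4 arrays, and 129 to 390 when 1 array was left out.

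Of 4126 values of single genes under the alternatives, 3567 kept their direction and side of the threshold, 386 lost and 151 gained a call, and 22 turned their sign. With median centring these were Wdr6 (-0.64), Emx2 (-0.50), Nkx2-3 (-0.31), Sox2 (-0.0772), Cd9 (-0.39), Bcas1 (-0.67), Neurog2 (0.0304), Neurod1 (0.17), Mx1 (-0.16), Tagln (-0.47), Cngb1 (-0.12) and Gfap (-0.95). Wdr6 was -3.27 without replicate 2, with or without 1 day replicate 1, and 4.68 without replicate 1. Ipcef1 was -6.15 with the processed signals. With the mean over probes Atp5b was 0.13 and Sdha 0.0703. Helt was 0.26 with the processed signals, 0.37 with quantile normalization, 0.11 with the value table and 0.62 without 14 days replicate 1. Leaving out a 14-day array gave -0.11 (without replicate 3) to 0.748 for Gfap and -0.14 (without replicate 4) to 1.35 for Slc17a6. Signal over background limits the dorsal channel most, where 41.0 to 62.3% of probes were well above it.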
